A study of Homo sapiens with 8 samples.

Results

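The OAS and MX antiviral effectors are the genes OAS1, OAS2, OAS3, OASL, MX1, MX2, RSAD2 and EIF2AK2, 8 of the gene names carried by an Agilent one-colour array of 60-base probes. Every probe that is not a control and carries one of these 8 names was taken, which gave 14 probes, each on a single spot. OAS1 was chosen by its low normalized signal in WT+NU6102 against WT, so all values of WT+NU6102 against WT are given for these genes as a description, without a test. RNA came from HCT-116, a human colorectal carcinoma cell line, in 4 groups of 2 arrays. WT are parental HCT-116 cells in exponential growth without inhibitor, and WT+NU6102 are the same cells after 24 h in 20 µM NU6102, a purine inhibitor of the kinases CDK1 and CDK2. CDK2-/- are HCT-116 cells with a CDK2 knockout, untreated, and R50 are HCT-116 cells resistant to NU6102 and kept in 50 µM of it. All 4 groups share the HCT-116 background and 10% serum, and WT+NU6102 and R50 were both in inhibitor, at different doses and for different times. How many clones the CDK2-/- and R50 cells represent, and whether the duplicate RNAs came from separate cultures, is not given in the sources used here, so p-values measure the spread between these arrays, which may be technical.

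Type I and type III interferons are secreted by cells that sense viral nucleic acid. They bind receptors that signal through JAK kinases to a transcription factor complex that holds STAT2 and IRF9 and binds interferon-stimulated response elements (ISREs) in promoters. Type II interferon acts through another kind of element, the gamma-activated site (GAS). The genes described here are targets of this pathway. OAS1, OAS2 and OAS3 are enzymes that bind double-stranded RNA and make oligoadenylates, a second messenger of the antiviral response, while OASL is a relative without this activity that assists RNA sensing. MX1 and MX2 are dynamin-like GTPases that block influenza viruses and human immunodeficiency virus, respectively. RSAD2 (viperin) is a radical SAM enzyme that makes a chain-terminating nucleotide, and EIF2AK2 (PKR) is a kinase that stops translation by phosphorylating the initiation factor eIF2. Epithelial cells express these genes at a low level and raise them on exposure to interferon.

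RefSeq promoter windows on GRCh38.p14, from 250 bases before a transcription start to 50 bases after it, were given for 5 of the 8 genes, in 8 windows. They are shown because 4 of these 5 genes, OAS1, OAS3, MX1 and EIF2AK2, were called lower in CDK2-/- than in WT, and RSAD2 was not. An ISRE core was searched as GAAANNGAAA and a GAS element as TTCNNNGAA, on both strands. The ISRE core was present in 5 of the 8 windows, those of OAS3, EIF2AK2, 2 of 3 of MX1 and 1 of 2 of RSAD2, against 3.57% of all 35116 windows. The GAS letters were present in 2 of the 8, those of OAS1 and 1 of MX1, against 7.66% of all windows. After this was seen, the same GAAA pair 1 base apart (GAAANGAAA) were searched too. These letters were in the OAS1 window, 1 of them beginning 17 bases before the start, and in 3.12% of all windows. With either spacing allowed, each of the 8 windows held a match, against 6.4% of all, and in OAS3 and MX1 the matches of both spacings overlap. Among windows of the other interferon-stimulated genes listed further on, 22 of 31 held the ISRE core, 8 the spacing of 1 base and 7 the GAS letters. Such a match is a description of letters and not a bound site. Stretches from 200 bases before the start to 30 after it are given here for 6 windows, 1 of them of MX1 (its first), in the direction of transcription, with matches of either ISRE spacing in capitals.
OAS1, chr12:112906762-112906991, plus strand: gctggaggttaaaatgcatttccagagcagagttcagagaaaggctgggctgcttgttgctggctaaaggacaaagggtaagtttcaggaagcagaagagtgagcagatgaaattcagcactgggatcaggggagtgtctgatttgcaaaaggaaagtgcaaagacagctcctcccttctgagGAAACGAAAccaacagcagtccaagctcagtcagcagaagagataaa
OAS3, chr12:112938274-112938503, plus strand: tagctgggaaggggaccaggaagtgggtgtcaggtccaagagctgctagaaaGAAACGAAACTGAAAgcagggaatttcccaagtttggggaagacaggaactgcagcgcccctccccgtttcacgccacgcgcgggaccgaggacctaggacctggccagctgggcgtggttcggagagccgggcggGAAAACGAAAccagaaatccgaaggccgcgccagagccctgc
MX1, chr21:41420358-41420587, plus strand: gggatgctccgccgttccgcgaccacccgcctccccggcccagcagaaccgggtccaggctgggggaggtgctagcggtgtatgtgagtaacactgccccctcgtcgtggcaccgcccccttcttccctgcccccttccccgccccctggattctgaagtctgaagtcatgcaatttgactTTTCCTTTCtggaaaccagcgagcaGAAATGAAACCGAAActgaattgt
RSAD2, chr2:6865685-6865914, plus strand: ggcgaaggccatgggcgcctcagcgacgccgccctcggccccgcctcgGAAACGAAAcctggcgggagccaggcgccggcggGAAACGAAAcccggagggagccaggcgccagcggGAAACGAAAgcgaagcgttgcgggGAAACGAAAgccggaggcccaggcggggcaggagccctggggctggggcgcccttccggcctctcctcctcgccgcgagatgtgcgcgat
RSAD2, chr2:6877577-6877806, plus strand: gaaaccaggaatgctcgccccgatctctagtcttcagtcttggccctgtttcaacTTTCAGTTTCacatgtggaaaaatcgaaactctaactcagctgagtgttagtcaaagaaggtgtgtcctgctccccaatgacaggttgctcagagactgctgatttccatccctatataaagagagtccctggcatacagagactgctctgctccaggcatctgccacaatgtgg
EIF2AK2, chr2:37156951-37157180, minus strand: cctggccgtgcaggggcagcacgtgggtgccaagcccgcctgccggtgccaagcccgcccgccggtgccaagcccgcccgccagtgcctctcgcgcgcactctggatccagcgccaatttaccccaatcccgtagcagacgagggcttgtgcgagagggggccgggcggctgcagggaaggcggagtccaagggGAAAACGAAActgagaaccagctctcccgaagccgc
OAS1 and OAS3 lie close together on chromosome 12. In OAS1 the capitals fall just before the start, and OAS3 has a match there and overlapping ones further upstream. In EIF2AK2 they span the start, and in the first RSAD2 window the same 9 letters come 4 times.

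Values are log2 of the background-subtracted signal less the 75th percentile of each array, called the normalized log2 signal, so that 0 is a spot as bright as that percentile. Levels of different probes cannot be set against each other. Of the 14 probes, 12 exceeded background clearly (the scanner software's well-above-background mark) in both duplicates of 1 or more groups and were tested, and 10 did so on all 8 arrays. The 2 others, one for OAS2 and one for RSAD2, were well above background on none and are not described further. Differences were called at a limma adjusted p under 0.05 (Benjamini-Hochberg over 28677 tested probes) and an absolute log2 difference of at least 1. CDK2-/- and R50 arrays were on slide 1 and WT and WT+NU6102 arrays on slide 2. R50 against CDK2-/- is therefore a comparison within a slide, whereas in CDK2-/- against WT and R50 against WT slide and group cannot be told apart, and these latter comparisons also share the WT arrays with each other and with the choice of OAS1. The CDK2 probe read −1.58 and −1.53 on the CDK2-/- arrays and −0.78 and −0.77 on the WT arrays, 0.78 lower on the log2 scale with its own adjusted p of 0.000271 (limma), under the minimum for a call; whether it lies in the deleted part is not given in the sources used here. Of the epithelial markers EPCAM, KRT8, KRT18 and CDH1 were well above background throughout and CDH17 and VIL1 on no array. In bulk RNA, fewer cells that express a gene and less RNA per cell cannot be told apart.

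Most of the antiviral effectors were highest in WT cells, intermediate in R50 cells and lowest in WT+NU6102 and CDK2-/- cells. In CDK2-/- against WT 8 of the 12 probes were called lower, from OAS1, OAS2, OAS3, OASL, MX1 and EIF2AK2, and none higher, where 2.30% of all tested probes were called lower. In R50 against WT 3 of 12 were called lower, from OAS3, OASL and MX1, against 0.952% of all probes, and none higher. In R50 against CDK2-/- 4 of 12 were called higher, from OAS1, OAS3 and MX1, against 2.85% of all probes, and none lower. In WT+NU6102 against WT, all 12 means were lower in treated cells, 9 of them by at least 1 on the log2 scale, where 5.92% of all tested probes were that much lower; since this contrast chose OAS1, nothing is read from that count. The median log2 difference over the 12 probes was −1.59 in WT+NU6102, −1.45 in CDK2-/- and −0.93 in R50, each against WT, and 0.80 in R50 against CDK2-/-. Over all tested probes the medians of these contrasts were 0.03, 0.01, −0.04 and −0.06.

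**Figure D1:**
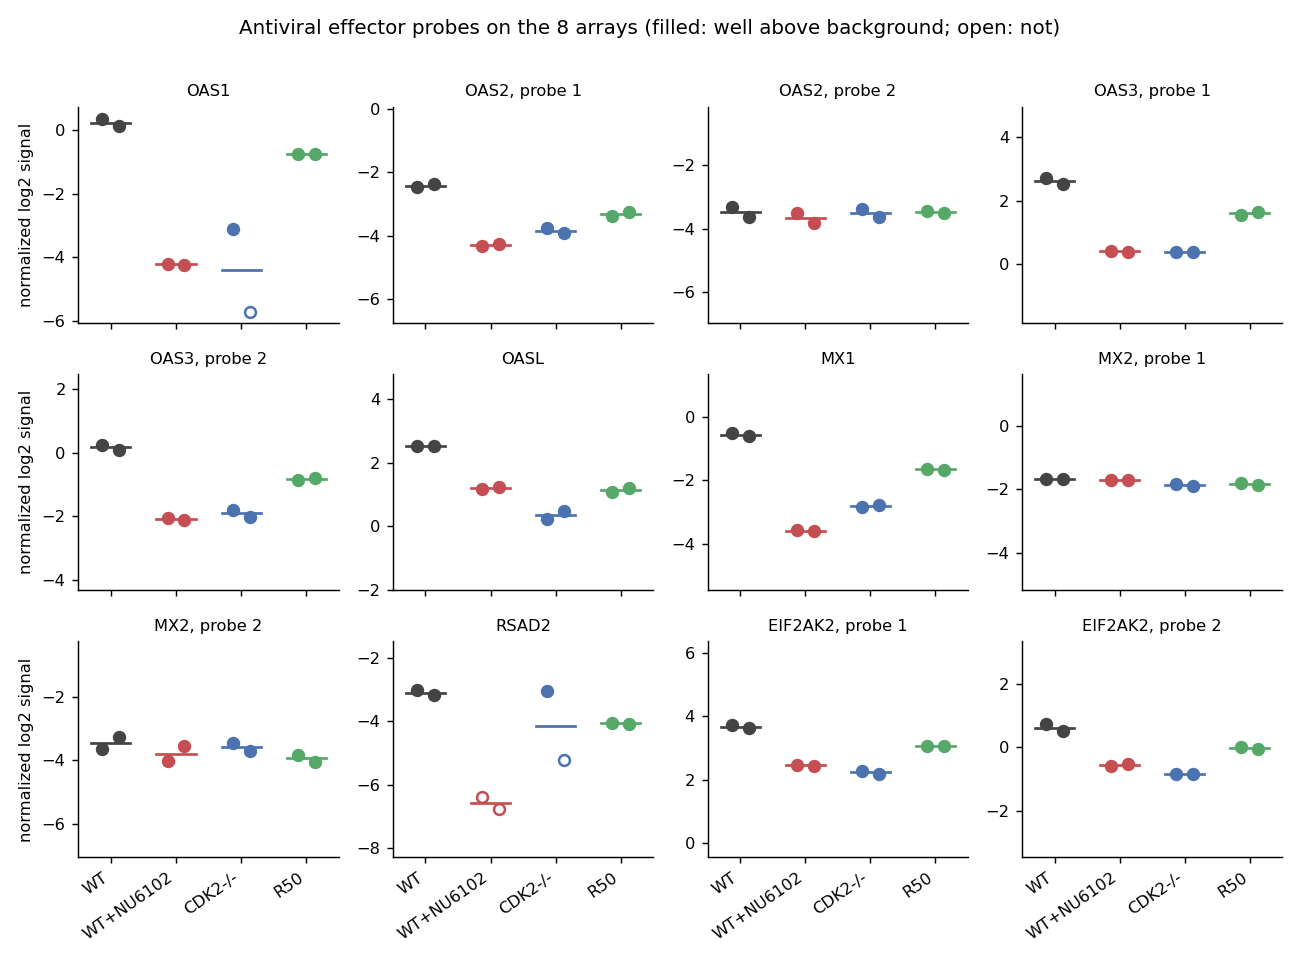
Normalized log2 signal (vertical axis, every panel spans the same range around its own centre) of the 12 tested probes on the 8 arrays, with a point per array, a bar at the group mean of 2 arrays, and open points where the spot was not well above background. WT lies at the top in nearly every panel, the group means of the second OAS2 probe and both MX2 probes stay close together, and the CDK2-/- arrays of OAS1 and RSAD2 lie far apart.

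OAS1 is read by 1 probe, at chr12:113354461-113354520 on hg19. Its normalized log2 signal was 0.35 and 0.13 in WT, −4.21 and −4.25 in WT+NU6102, −3.12 and −5.71 in CDK2-/- and −0.74 and −0.75 in R50. The WT and R50 arrays each lay above all WT+NU6102 and CDK2-/- arrays, and the treated arrays fell between the CDK2-/- ones. In background-subtracted intensity, before any scaling, these were 926 and 775 for WT, 40.8 and 38.0 for WT+NU6102, 76.5 and 12.5 for CDK2-/- and 411 and 417 for R50. The second CDK2-/- spot was the only one not well above background. The mean of WT+NU6102 was thus 22.1-fold below WT, or 4.47 on the log2 scale, the value for which OAS1 was chosen. With normexp background correction this difference was −3.16.

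In CDK2-/- cells OAS1 was lower than in WT (log2 difference −4.66, SE 0.78, limma adjusted p = 0.00859), with 1 of the 2 CDK2-/- arrays well above background, so that the size is uncertain. It was −3.36 without CDK2-/- replicate 2, the spot not well above background, −5.95 without CDK2-/- replicate 1, and −3.04 with normexp, and was called in each. Without WT replicate 1 the difference was −4.55 and the call was narrowly lost. The call was also lost by a t-test on the arrays of the 2 groups (adjusted p = 0.181). In R50 cells OAS1 was higher than in CDK2-/- cells by 3.68 (SE 0.78, limma adjusted p = 0.0169). This difference was 2.38 without CDK2-/- replicate 2, 4.97 without CDK2-/- replicate 1 and 2.21 with normexp, and was called in each. The call was lost without either R50 array and in a limma fit of the 4 slide 1 arrays alone (adjusted p = 0.0730). A t-test on the 2 groups lost it too (adjusted p = 0.230), and the difference was 3.67 or 3.68 in each. In all of these fits the direction was kept, and neither R50 array overlapped a CDK2-/- array. In a one-way ANOVA over the 4 groups OAS1 had an adjusted p of 0.0305, short of the methods' threshold of 0.001.

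In R50 against WT the OAS1 difference was −0.98, or 50.6% of the WT level, and it was not called (SE 0.78, limma adjusted p = 0.418), although the 4 arrays concerned did not overlap. The SE is shared by all 4 groups, and the SD of OAS1 within groups (0.92, pooled) was larger than that of 99.3% of tested probes because of the 2 CDK2-/- arrays. A fit without them, chosen after this was seen, gave the same difference with an adjusted p of 0.00683 (limma), still short of the minimum difference of 1.

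OAS2 had 2 tested probes, which behaved differently. The probe for NM_001032731, at chr12:113426550-113426609 on hg19, read −2.47 and −2.38 in WT, −4.32 and −4.25 in WT+NU6102, −3.74 and −3.92 in CDK2-/- and −3.38 and −3.25 in R50. No group overlapped another, in the order WT, R50, CDK2-/- and WT+NU6102. It was lower in CDK2-/- than in WT (log2 difference −1.41, SE 0.09, limma adjusted p = 0.000318), while under normexp background correction the difference was −0.70 and no longer called. In R50 it was −0.89 from WT (adjusted p = 0.00260, limma) and 0.52 from CDK2-/- (0.00719), both under the minimum difference. The probe for NM_002535, at chr12:113448429-113448488, lay between −3.83 and −3.33 on all 8 arrays, and each group overlapped at least 1 other. Its CDK2-/- minus WT difference was −0.03 (95% CI −0.42 to 0.36) and its R50 minus WT difference 0.00 (95% CI −0.39 to 0.40).

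OAS3, the family member with the longest protein, had 2 probes for the same transcript, which ran together. The brighter one, at chr12:113410131-113410190 on hg19, read 2.71 and 2.53 in WT, 0.43 and 0.38 in WT+NU6102, 0.37 and 0.40 in CDK2-/- and 1.56 and 1.65 in R50. WT+NU6102 and CDK2-/- arrays overlapped, and every other pair of groups was apart. It was 4.72-fold lower in CDK2-/- than in WT (log2 difference −2.24, SE 0.07, limma adjusted p = 5.42e-05), and 2.03-fold lower in R50 than in WT (−1.02, adjusted p = 0.00115). R50 was above CDK2-/- by 1.22 (limma adjusted p = 0.000284). The R50 against WT call was lost without WT replicate 1 (−0.93) or R50 replicate 1 (−0.97), where the difference came to under 1. The dimmer probe, at chr12:113405902-113405961, gave −2.07, −0.99 and 1.08 for the same comparisons, so that in R50 against WT it just missed the minimum difference (limma adjusted p = 0.00264). In WT+NU6102 the 2 probes were 4.65-fold and 4.78-fold below WT.

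OASL differed from the other OAS genes in the order of the groups. Its probe, at chr12:121458320-121458379 on hg19, read 2.52 on both WT arrays, 1.18 and 1.24 in WT+NU6102, 0.24 and 0.49 in CDK2-/- and 1.09 and 1.21 in R50. WT+NU6102 and R50 thus overlapped, and CDK2-/- alone was lowest. OASL was 4.47-fold lower in CDK2-/- than in WT (log2 difference −2.16, SE 0.10, limma adjusted p = 0.000124) and 2.59-fold lower in R50 than in WT (−1.37, SE 0.10, adjusted p = 0.000988), the largest difference of any of these genes in R50 against WT. R50 exceeded CDK2-/- by 0.79 (limma adjusted p = 0.00253), under the minimum for a call.

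MX1 and MX2 did not behave alike. The MX1 probe, at chr21:42831014-42831073 on hg19, read −0.52 and −0.62 in WT, −3.57 and −3.60 in WT+NU6102, −2.83 and −2.77 in CDK2-/- and −1.63 and −1.67 in R50. No group overlapped another, and duplicates lay within 0.10 of each other, so that MX1 had the smallest SE among the probes called. It was 4.70-fold lower in CDK2-/- than in WT (log2 difference −2.23, SE 0.06, limma adjusted p = 2.51e-05) and 2.12-fold lower in R50 than in WT (−1.08, adjusted p = 0.000425). R50 was 2.22-fold above CDK2-/- (log2 difference 1.15, limma adjusted p = 0.000147). With normexp background correction, the R50 differences from WT and CDK2-/- were −0.86 and 0.83 and were not called. In WT+NU6102 MX1 was 8.11-fold below WT, a log2 difference of −3.02 that became −2.08 with normexp, and its arrays lay below those of CDK2-/-.

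The brighter MX2 probe, for ENST00000495892 at chr21:42735919-42735978, read between −1.89 and −1.67 on all 8 arrays. Its difference from WT was −0.18 in CDK2-/- (limma adjusted p = 0.0432) and −0.15 in R50 (0.0811), and R50 differed from CDK2-/- by 0.03 (95% CI −0.10 to 0.15). The MX2 probe for NM_002463, at chr21:42780501-42780560, lay between −4.05 and −3.25. Its differences from WT were −0.12 in CDK2-/- (95% CI −0.66 to 0.41) and −0.48 in R50 (95% CI −1.02 to 0.05). No MX2 probe was called in any tested comparison. The intervals of the brighter one, for ENST00000495892, exclude a 2-fold difference. That of the NM_002463 probe in R50 against WT, which reaches −1.02, does not.

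RSAD2 was dim, and its tested probe, at chr2:7037200-7037259 on hg19, was well above background on 5 arrays. It read −3.01 and −3.17 in WT, −6.37 and −6.75 in WT+NU6102, −3.05 and −5.21 in CDK2-/- and −4.05 and −4.07 in R50. Neither WT+NU6102 array nor the second CDK2-/- array was well above background there. WT+NU6102 was at least 3.69-fold below WT, taking the lowest signal well above background on each treated array in place of the measured one, while with normexp the log2 difference was −1.01. The first CDK2-/- array lay within the WT values and the second far below them, and the CDK2-/- minus WT difference was −1.04 (SE 0.66, limma adjusted p = 0.291). Without CDK2-/- replicate 1 it was −2.12 (adjusted p = 0.00460) and without CDK2-/- replicate 2 it was 0.04 (0.890). R50 minus CDK2-/- turned with the same arrays, from 0.07 (limma adjusted p = 0.947) to 1.15 (0.0166) without replicate 1 and −1.01 (0.0224) without replicate 2, and no direction is given for RSAD2 in these comparisons. R50 minus WT was −0.97 (adjusted p = 0.350, or 0.0216 in a limma fit without both CDK2-/- arrays).

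EIF2AK2 was read by 2 probes that gave nearly the same differences. The brighter one, for NM_002759, joins stretches between 37336386 and 37341880 on chromosome 2 of hg19, and read 3.71 and 3.62 in WT, 2.48 and 2.44 in WT+NU6102, 2.28 and 2.20 in CDK2-/- and 3.06 on both R50 arrays. No group overlapped another, and here CDK2-/- lay below WT+NU6102. EIF2AK2 was 2.69-fold lower in CDK2-/- than in WT (log2 difference −1.43, SE 0.06, limma adjusted p = 9.42e-05), and the probe for NM_001135652, at chr2:37368778-37368837, gave −1.47 (adjusted p = 0.000218). In R50 the differences from WT were −0.61 and −0.64 (limma adjusted p = 0.00241 and 0.00528), and R50 lay above CDK2-/- by 0.82 and 0.83 (0.000419 and 0.00109). These pass the p threshold alone.

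**Figure D2:**
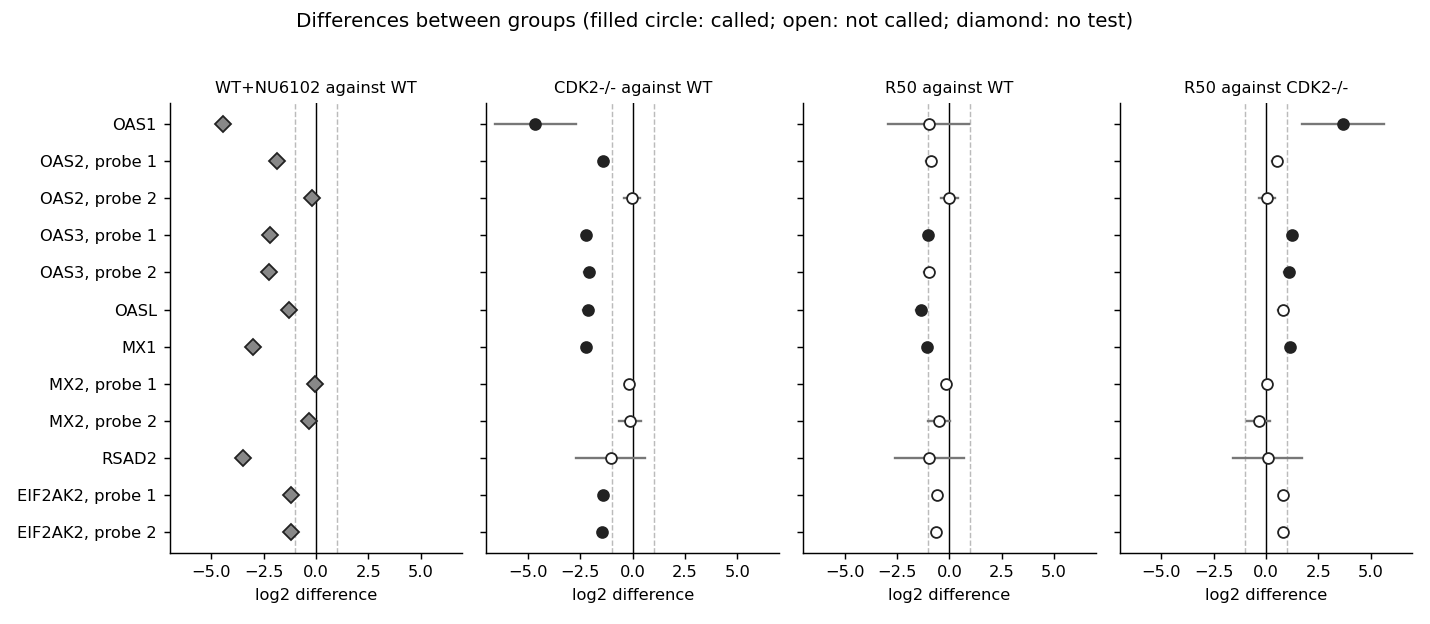
Log2 difference between groups (horizontal axis) for each of the 12 tested probes in the 4 comparisons, with 95% confidence intervals of the limma fit, dashed lines at the minimum difference of 1, filled circles for called probes, open circles for those not called, and grey diamonds where no test was made. Called probes lie to the left in CDK2-/- and R50 against WT and to the right in R50 against CDK2-/-, and the wide intervals are those of OAS1 and RSAD2.

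The minimum difference decided several of these calls. On the adjusted p alone, 7 of 12 probes were lower in R50 than in WT, with 12.8% of all tested probes lower by that rule, and 8 of 12 were higher in R50 than in CDK2-/-, with 15.2% of all. The probes that join the calls under this rule are those of OAS2, OAS3, OASL and EIF2AK2, with differences of −0.99 to −0.61 from WT and of 0.52 to 0.83 from CDK2-/-, whereas OAS1 (R50 against WT), RSAD2 and both MX2 probes do not join in either comparison.

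The rest of the pathway was taken from fixed lists of 76 genes, of which 69 had a tested probe, with the brightest probe standing for a gene. In CDK2-/- against WT 28 of the 69 were called lower and none higher, with 2.25% of all 21595 gene names called lower. In R50 against WT 10 were called lower and 1 higher, with 0.908% and 1.72% of all called in those directions. The lower calls of both comparisons include IL28B and IL29, which entered the test through WT alone. Nothing is read from the calls of these genes. In R50 against CDK2-/- 21 were called higher and 2 lower, against 2.83% and 2.28% of all. In WT+NU6102 against WT 31 were called lower and none higher, against 5.19% of all called lower; this contrast chose OAS1 and nothing is read from the count. The calls were unevenly spread over the lists.

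Of 10 interferon ligand genes, 3 had a tested probe, named IL28A, IL28B and IL29 on the array. These are the older names of the type III interferons IFNL2, IFNL3 and IFNL1, and IL28A and IL28B are near-identical copies whose probes may take up each other's RNA. In CDK2-/- against WT all 3 were called lower. IL29 and IL28B were well above background on both arrays of WT alone, and entered the test through that group. Their lower calls against WT thus partly follow from the filter, and nothing is read from them. IL28A differed by −1.71 (limma adjusted p = 0.000165), and IL29 and IL28B, not well above background in CDK2-/-, were at least 5.22-fold and 2.15-fold lower. In R50 against WT IL29 (−1.84, limma adjusted p = 0.0456) and IL28B (at least 1.99-fold) were called lower, and IL28A (−0.97) was not. No ligand was called between R50 and CDK2-/-. In WT+NU6102 the IL28B mean was at least 1.93-fold below WT, and the IL28A difference was −1.38. The IL29 mean there was 4.11-fold below WT as measured, with neither treated array well above background. Probes of IFNA1, IFNA2, IFNB1, IFNE, IFNK, IFNW1 and IFNG were not tested.

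None of the 9 genes of interferon receptors and JAK kinases was called in any of the 4 comparisons. In CDK2-/- against WT their median difference was −0.04, from −0.87 for JAK1 to 0.44 for TYK2, both kinases bound to the receptors. Of 7 transcription factors, IRF7 (−3.28) and IRF9 (−2.57) were called lower in CDK2-/- against WT, with limma adjusted p-values of 1.58e-05 and 5.42e-05. Both were called higher in R50 than in CDK2-/-, by 2.47 and 2.34. IRF7 drives further interferon production, and IRF9 is the DNA-binding part of the ISRE-binding complex. None of the 7 was called in R50 against WT, where IRF7 differed by −0.81. In WT+NU6102 the differences from WT were −3.81 for IRF9, −2.41 for IRF7 and −1.13 for STAT2.

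Among 4 negative regulators, USP18, a protease that removes ISG15 and blocks the receptor, was called lower in CDK2-/- against WT (−1.68, limma adjusted p = 0.000137) and was −1.06 from WT in WT+NU6102. SOCS1, an inhibitor of JAK kinases, was called lower in R50 than in CDK2-/- (−1.03, adjusted p = 0.00135, limma). The direct partners of the effectors gave few calls. Neither PDE12, which degrades oligoadenylates, nor ABCE1, a ribosome recycling factor, was called against WT. ABCE1 was lower in R50 than in CDK2-/- (−1.17, limma adjusted p = 0.000103). Against WT it differed by 0.93 in CDK2-/- (limma adjusted p = 0.000228), under the minimum difference, and by −0.24 in R50. Of 10 genes of the PKR arm, which include other eIF2 kinases and eIF2 itself, none was called in any comparison. EIF2AK4 had the largest difference from WT among them in CDK2-/- (0.83, limma adjusted p = 0.000570) and in R50 (0.65, 0.00235). Of the 4 dynamin relatives of the MX proteins, DNM3 alone was called, higher in R50 than in WT (1.70, limma adjusted p = 0.00552) and than in CDK2-/- (1.65, 0.00305). CMPK2, a nucleotide kinase whose gene adjoins RSAD2, was lower in CDK2-/- than in WT (−1.14, limma adjusted p = 0.000616), and R50 was −0.74 from WT without a call.

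Of 29 other interferon-stimulated genes, 21 were called lower in CDK2-/- against WT, 8 in R50 against WT, and 18 higher in R50 than in CDK2-/-, with none called in the opposite direction. Of all gene names, 2.25%, 0.908% and 2.83% were called in those directions. The median differences of the 29 genes were −1.94, −0.74 and 1.24. In WT+NU6102 against WT the median was −1.63 and 23 were called lower, where 5.19% of all gene names were. That contrast chose OAS1, and nothing is read from the count. In CDK2-/- against WT the largest were IFI44, at least 63.2-fold lower and not well above background in CDK2-/-, IFITM1 (−6.37), BST2 (−6.21) and IFI27 (−6.00), with limma adjusted p-values of 1.98e-05, 1.16e-05, 3.15e-05 and 1.16e-05. IFITM1 and BST2 are membrane proteins that hinder virus entry and release. The same 4 were those with the largest differences in R50 against CDK2-/-, where IFI27 was 5.69 higher, IFITM1 5.25, BST2 4.96 and IFI44 at least 15.6-fold higher. In R50 against WT the largest were IFI44L (−2.89), IFI44 (−2.02), IFIT1 (−1.47) and IFIT3 (−1.46). In WT+NU6102 they were IFI44L, at least 11.2-fold below WT, APOBEC3G (−4.31), PARP9 (−3.64) and IFIT1 (−3.48).

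**Figure D3:**
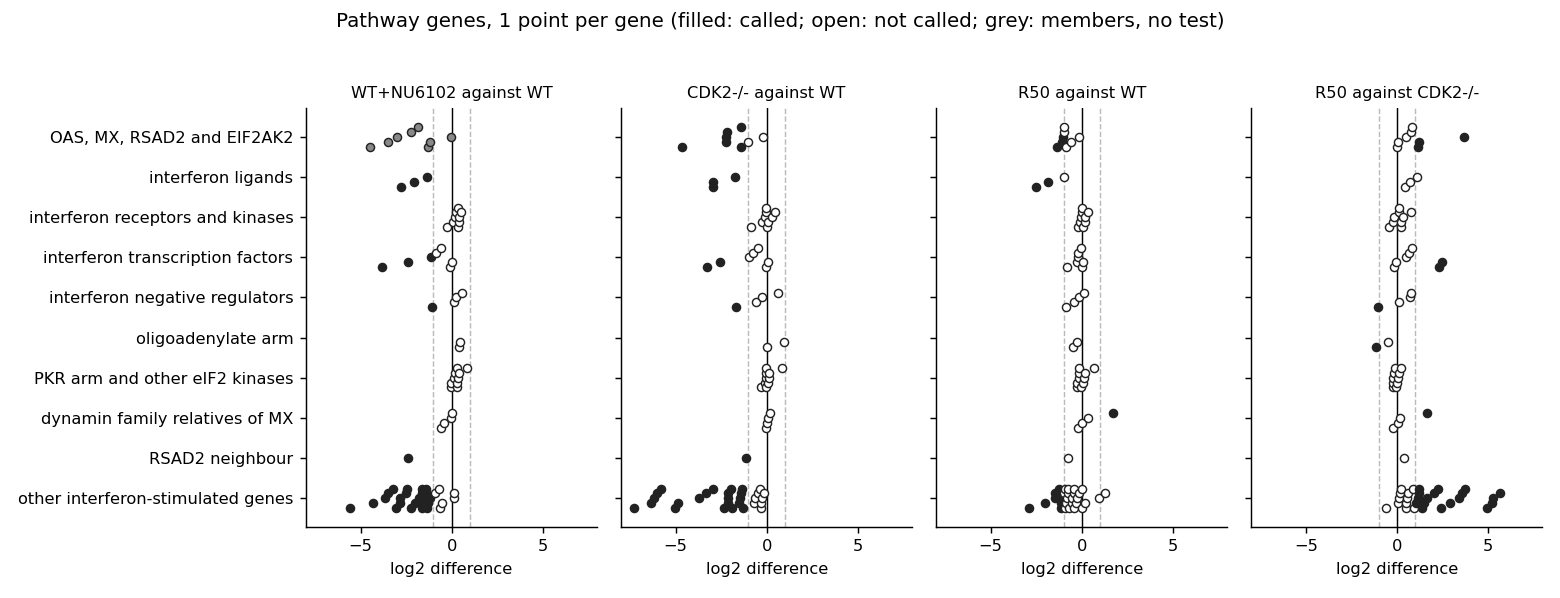
Log2 difference (horizontal axis) of each pathway gene by its brightest tested probe in the 4 comparisons, with the effectors in the top row, filled points for called genes, open points for those not called, grey points where no test was made, and dashed lines at a difference of 1. Points of the receptor and PKR rows lie near 0, and those of the effectors, ligands, transcription factors and other interferon-stimulated genes reach far from it.

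Marker genes of other cell types were read on the same arrays. Of 6 leukocyte markers, ITGAM lacked a usable spot on an array and was left out, and PTPRC, CD14 and SPI1 passed the background mark on all 8 arrays, at normalized log2 signals between −3.33 and −2.07. The summed leukocyte signal was −0.83 to −0.69 in WT, −0.85 to −0.76 in WT+NU6102, −0.50 to −0.49 in CDK2-/- and −0.59 in R50. Of 5 fibroblast markers COL1A1 passed that mark on all arrays and COL1A2, LUM and PDGFRB on none, and the summed signal was −2.52 to −2.47 in WT, −3.17 to −2.91 in WT+NU6102, −1.44 to −1.40 in CDK2-/- and −1.99 to −1.81 in R50. Of 3 endothelial markers 2 passed it on all arrays, with sums between −1.58 and −1.25. The sums were therefore not lowest in CDK2-/-, where the effectors were called lower, and their part in the results was not tested.

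Over the 8 arrays, the genes most like OAS1 were sought among 4331 gene names with a range of group means of at least 1, by Pearson's r with its probe. These arrays fall into 4 groups, so r describes the group means to a large part and is given without a test. It also follows the gap between the CDK2-/- arrays of OAS1 (−3.12 and −5.71), of which the second was not well above background. In each of the 8 genes named next, CDK2-/- replicate 1 likewise lay above replicate 2. The 8 highest were XAF1 (r = 0.984), GAL3ST1 (0.981), SAMD9L (0.980), PRICKLE1 (0.963), XLOC_000755 (0.961), KLRC4 (0.957), XLOC_003123 (0.956) and DDX60 (0.955). XAF1, SAMD9L and DDX60 are themselves induced by interferon, GAL3ST1 is a sulfotransferase of glycolipids, PRICKLE1 acts in planar cell polarity, and the names XLOC_000755 and XLOC_003123 denote assembled loci. SAMD9L had the largest drop, from −1.62 in WT to −6.69 in WT+NU6102 and −6.59 in CDK2-/-, in both of which it was not well above background, with −2.14 in R50. DDX60, a helicase, read 0.23, −2.76, −2.78 and −0.85 in WT, WT+NU6102, CDK2-/- and R50. Of the effectors themselves, r with OAS1 was 0.933 for EIF2AK2, 0.927 for OAS3, 0.898 for MX1, 0.888 for OAS2, 0.734 for RSAD2, 0.722 for OASL and 0.384 for MX2.

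**Figure D4:**
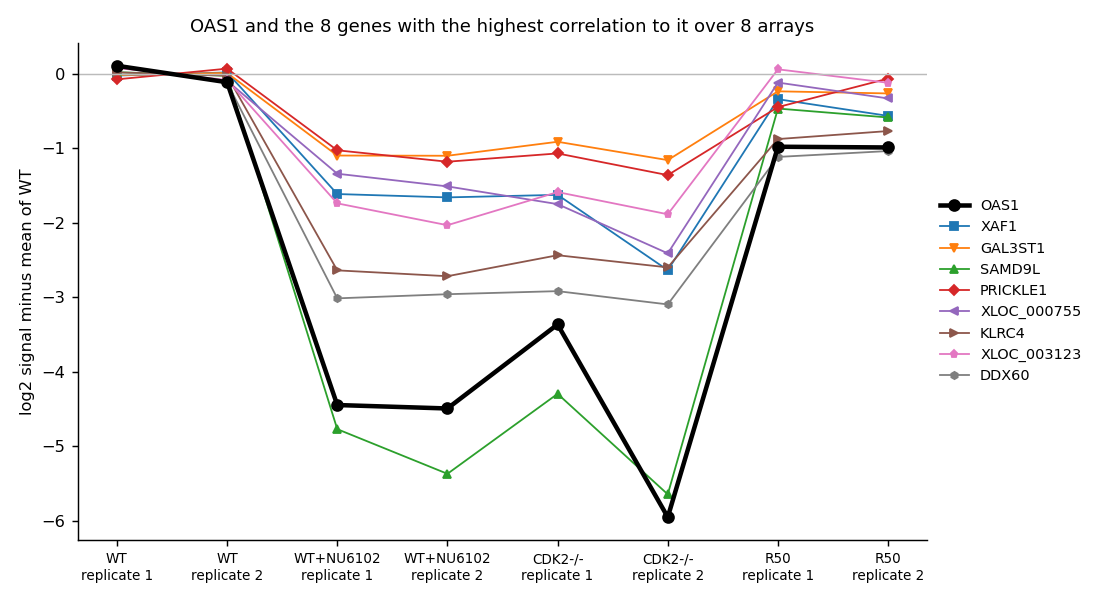
Normalized log2 signal minus the mean of WT (vertical axis) on each of the 8 arrays for OAS1 (black) and the 8 genes with the highest correlation to it. In every line the WT+NU6102 and CDK2-/- arrays lie below the WT and R50 arrays, and OAS1 and SAMD9L reach the lowest values.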

How the data were processed

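Gene expression in HCT-116 cells was measured on 8 one-colour arrays, 2 for each of 4 groups taken from the sample titles. The authors labelled RNA with Cy3 and deposited the spot intensity written by Agilent Feature Extraction 11.5.1.1, background-subtracted and not normalized between arrays. They also deposited processed log2 values, made with GeneSpring GX and centred per probe, which served as an alternative. No spot was marked saturated, and 32376 to 36206 spots per array were well above background. The number of arrays limits the precision.

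With R 4.3.3, the R package data.table (version 1.17.8) and limma 3.58.1, control and outlier spots were left out, each signal was log2-transformed and scaled by subtracting its array's 75th percentile over spots that are not controls. Of 50599 probes 31 lacked a usable spot on an array, and 28677 entered the test, being well above background in both duplicates of 1 or more groups. One fit with a mean per group over all 8 arrays gave two-sided contrasts, with Benjamini-Hochberg adjustment per contrast over all tested probes. The code was tested on simulated data. Where 1 value per gene was needed, the brightest probe by its 8-array mean stood for it. Named genes are the 8 effectors, up to 4 called genes with the largest differences per list and comparison, and the 8 genes most correlated with OAS1; other genes were named after their values were seen. The effectors, gene lists, rules and tests were chosen with earlier results of these data known, and some genes of the pathway are not reported here. Genes carry the names in the files, and all 12 effector probes with a RefSeq transcript matched the same symbol on GRCh38.p14. Probe positions are those of the WT and WT+NU6102 files (hg19); those of CDK2-/- and R50 name no build. Promoter sequences come from RefSeq. Alternatives were normexp (offset 50), quantile normalization, the authors' values, other filters on dim probes, a trended prior, other thresholds, a replicate block, a fit within slides, the methods' t-test and ANOVA, and leaving out each array. The ANOVA was run without a post hoc test, so it asks whether any of the 4 groups differ and is not specific to a pair. The fit without both CDK2-/- arrays was added after seeing the data. Plots were made in matplotlib 3.10.9 (Python 3.11.15, numpy 2.4.6).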

Additional observations from a re-analysis of the deposited data

How the results depend on the processing

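The 8 effector probes called in CDK2-/- against WT became 3 by the methods' t-test and 4 past the methods' ANOVA, and numbered 7 to 9 when each array was left out. The 3 called in R50 against WT became 7 with no minimum difference and 0 by the methods' t-test. At an unadjusted p under 0.05 that t-test took 10 of the 12, and 7430 of all 28677 tested probes. The 4 called in R50 against CDK2-/- became 8 with no minimum difference, 2 with normexp, 2 by the t-test, and 3 to 5 with an array left out. The median of WT+NU6102 against WT moved from −1.59 to −1.14 with normexp and to −1.26 with either other filter on dim probes, and lay between −1.62 and −1.56 with an array left out. Of the 69 other pathway genes, those called went from 31 to 52 (WT+NU6102 against WT), 28 to 48 (CDK2-/- against WT), 11 to 37 (R50 against WT) and 23 to 45 (R50 against CDK2-/-) with no minimum difference. The 11 of R50 against WT, with IL28B and IL29 among them, became 7 among probes well above background on all arrays. They became 0 by the t-test, which called 9 over all probes, and 27 past the ANOVA. At an unadjusted p under 0.05 the t-test took 36 of the 69, beside the 7430 of all 28677 tested probes. Leaving out an array gave 28 to 31, 27 to 29, 10 to 12 and 21 to 23. CDK2 in CDK2-/- against WT (−0.78) passed with no minimum difference (limma adjusted p = 0.000271), and lay between −0.80 and −0.75 with an array left out. The ANOVA, a test for any difference among the 4 groups, gave CDK2 an adjusted p of 0.000308. The ANOVA counts above therefore hold probes that vary among the 4 groups, and are not calls between 2 of them. RSAD2 in R50 against CDK2-/- went from 0.07 to −1.01 without CDK2-/- replicate 2 and to 1.15 without CDK2-/- replicate 1. The cause was not tested beyond what each setting fixes. Replicate differences of 2 groups correlated with r between −0.03 and 0.05, so no strong effect shared by replicate number was seen over the tested probes. Whether arrays of the same number were prepared together is not given in the sources used here and cannot be told from these correlations. The replicate block gave 8, 3 and 4 effector calls and 31, 28, 10 and 22 other pathway calls, in the order above. It changed no call of an effector gene's brightest probe. The slide block could be fitted only within slides, where R50 against CDK2-/- had 3 effector calls and 22 others, and OAS1 was not called.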

Other observations

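The CDK2-/- duplicates differed far more in some of these genes than in others. CDK2-/- replicate 1 less replicate 2 was 2.59 on the log2 scale for OAS1 and 2.17 for RSAD2, larger than in 99.95% and 99.9% of the tested probes, over which this difference had a median of 0.01 and an SD of 0.29. It was −0.06 for MX1, −0.03 and 0.21 for the OAS3 probes, −0.25 for OASL and 0.18 for the OAS2 probe that was called, so these probes did not share the gap. The second CDK2-/- spots of OAS1 and RSAD2 were not well above background, so the sizes of their gaps are uncertain. XAF1 differed by 1.01, with neither CDK2-/- array well above background. Its profile was ranked closest to that of OAS1 over arrays that include these duplicates, so a gap in this direction is partly built into that ranking. OAS1, RSAD2 and XAF1 are the genes of the effectors and pathway lists that reached a gap of at least 1 in this direction.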
